A study of Rattus norvegicus with 11 samples.

Results

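The genes described here encode the enzymes that make cholesterol and fatty acids, and the proteins that control them, measured in islets of Langerhans of rats. They were chosen by gene symbol, as 32 genes of the SREBP (sterol regulatory element-binding protein) pathway, sterol synthesis, and fatty acid synthesis or desaturation. Of these, 27 had an array probe with that symbol alone, out of 14324 genes named in this way. The probe with the highest mean stood for a gene with several. The array values of Hmgcs1, Mvk, Fdps, Srebf1 and Fasn were not analysed here. The 27 comprised 15 of 18 genes of the sterol arm, 7 of 8 of the fatty acid arm, 4 of 5 regulators of SREBP, and the sterol carrier gene Stard4.

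Islet RNA came from daughters, 13 weeks old, of male Sprague-Dawley rats that were fed either a high-fat diet (HFD, 43% fat) or chow (9% fat). The fathers were mated with chow-fed females at 15 weeks of age, and daughters of both groups ate chow from weaning at 3 weeks, so the diet contrast lay in the father alone. There were 5 HFD-father arrays and 6 chow-father arrays, all one-colour, labelled as female offspring. Per the labels, daughters of HFD-fed fathers were glucose intolerant and had a weaker early insulin response, without a difference in body weight. The labels number the samples but do not say which father, litter or rat each came from, so the p-values reflect the spread of these arrays, some of it perhaps technical. The question of the comparison is how the diet of the father is reflected in these transcripts of the daughters.

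Cells build cholesterol from acetyl-CoA through mevalonate, isopentenyl units, squalene and lanosterol, and build saturated fatty acids from the same acetyl-CoA by way of malonyl-CoA. SREBP transcription factors switch on both arms. They are held in the endoplasmic reticulum with their escort Scap by the Insig proteins while sterols are plentiful, and they travel to the Golgi apparatus for cleavage when sterols run low. SREBP-2, encoded by Srebf2, acts mainly on sterol genes and SREBP-1, encoded by Srebf1, mainly on fatty acid genes. In beta cells, membrane cholesterol is known to bear on insulin granules and their release.

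SREBPs commonly act with the factor NF-Y, which binds CCAAT boxes in promoters. Promoter sequences (250 bases before to 50 after the annotated start, RefSeq, GRCr8 build) were at hand for 25 of the 32 genes, and Srebf1, which has 2 annotated starts, was counted once. Of the 25 genes, 21 also had array values, and the other 4 were Hmgcs1, Mvk, Fdps and Srebf1. CCAAT or its reverse complement ATTGG stood in 19 of the 25 (76%), against 38.2% of 12381 promoters of genes on the array. The share was 80% for 15 sterol arm promoters and 60% for 5 fatty acid arm promoters. Those 15 are not the 15 measured sterol arm genes, as they hold Hmgcs1, Mvk and Fdps and lack Pmvk, Fdft1 and Sqle. Acaca, Elovl6 and Stard4 had no entry either. The strict sterol regulatory element TCACNCCAC, with N any base and on either strand, was in none of the 25 and in 1.07% of promoters of genes on the array. With 1 of its 8 fixed letters changed it was in 13 of the 25 (52%), against 23.7% of promoters of genes on the array. The loosened form was chosen after the strict result was seen. A match describes letters and shows no binding.

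The sequences below belong to the genes of lowest unadjusted p that had an entry, namely 1 regulator, 3 sterol arm genes and 1 fatty acid arm gene, a choice made after the matches were seen. Capitals mark CCAAT or ATTGG and the loosened element of 9 letters. Insig1 holds the loosened element as GTGGCGTGT and GTGGCGTGC, Msmo1 as TCACTCCAT and Nsdhl as GTGCTGTGA. Msmo1 has 3 CCAAT-type matches, Nsdhl 5, Idi1 2, and Insig1 and Acss2 1 each. All are written 5′ to 3′ on the strand of the gene.
Insig1 (chr4:8057720-8058019, minus strand): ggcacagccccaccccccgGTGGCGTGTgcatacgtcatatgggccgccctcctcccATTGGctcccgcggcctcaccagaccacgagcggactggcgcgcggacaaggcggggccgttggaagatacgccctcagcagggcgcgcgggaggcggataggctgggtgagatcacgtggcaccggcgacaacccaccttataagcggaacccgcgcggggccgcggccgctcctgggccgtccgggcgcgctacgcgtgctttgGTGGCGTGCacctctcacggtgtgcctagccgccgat
Idi1 (chr17:66547475-66547774, minus strand): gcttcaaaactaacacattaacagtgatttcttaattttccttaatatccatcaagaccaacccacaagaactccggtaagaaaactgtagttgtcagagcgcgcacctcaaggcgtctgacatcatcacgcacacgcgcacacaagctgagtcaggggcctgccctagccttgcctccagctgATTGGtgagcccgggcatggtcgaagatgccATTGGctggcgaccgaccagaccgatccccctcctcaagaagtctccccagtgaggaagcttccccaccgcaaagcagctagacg
Msmo1 (chr16:29746863-29747162, plus strand): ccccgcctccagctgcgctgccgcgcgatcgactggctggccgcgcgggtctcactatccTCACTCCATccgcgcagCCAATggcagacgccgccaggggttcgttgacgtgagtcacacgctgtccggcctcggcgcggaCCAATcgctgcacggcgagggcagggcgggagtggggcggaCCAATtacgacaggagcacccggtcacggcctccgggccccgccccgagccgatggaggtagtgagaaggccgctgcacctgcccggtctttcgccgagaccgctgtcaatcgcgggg
Nsdhl (chrX:155817110-155817409, plus strand): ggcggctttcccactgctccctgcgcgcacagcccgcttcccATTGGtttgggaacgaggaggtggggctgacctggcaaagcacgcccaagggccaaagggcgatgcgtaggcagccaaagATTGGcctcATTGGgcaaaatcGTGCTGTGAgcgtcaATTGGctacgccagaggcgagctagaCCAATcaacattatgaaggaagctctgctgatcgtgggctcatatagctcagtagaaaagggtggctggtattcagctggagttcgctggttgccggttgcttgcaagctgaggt
Acss2 (chr3:164464453-164464752, plus strand): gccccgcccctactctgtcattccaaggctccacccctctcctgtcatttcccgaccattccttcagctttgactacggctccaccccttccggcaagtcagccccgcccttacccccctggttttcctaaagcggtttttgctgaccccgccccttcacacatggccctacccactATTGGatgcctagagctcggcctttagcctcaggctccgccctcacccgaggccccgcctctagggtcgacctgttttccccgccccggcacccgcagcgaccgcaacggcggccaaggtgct

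Values are log2 values normalized between arrays by the authors, and differences are HFD-father minus chow-father on that scale. Groups were compared with limma over all 27342 probes, with Benjamini-Hochberg adjustment over all of them and 0.05 as the threshold. No member passed, as no gene of the table did (0% of 14324 genes, lowest adjusted p = 0.316). Before adjustment 1 member, Insig1, had a p under 0.05 with a higher mean in HFD-father arrays, as had 2.97% of all genes. No member had such a p with a lower mean, against 5.28% of all genes, which makes 1 of 27 members in either direction against 8.25%. No test was run on the members as a set, because they were chosen with earlier results of these data known. The groups overlapped in all 27 members, while they did not in 0.887% of all genes, and in 0.349% every HFD-father array lay above every chow-father array.

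The arrays fall by their sample numbers into an earlier set of 8 (4 per group) and a later set of 3 (1 HFD-father array, number 5, and chow-father arrays 5 and 6). The probe means of both sets were equal to within 5.83e-05, so the values had been centred between the sets before deposit, and differences within each set are given where they bear on a result. Islet hormone genes were bright in every array, from 13.90 to 14.13 for glucagon (Gcg) and from 14.18 to 14.34 for Ins1. Digestive enzyme genes of acinar cells were bright too, with 13 measured markers averaging from 10.31 to 14.20. The mean deviation of those markers ran from -0.12 to 0.40 in HFD-father arrays and from -0.91 (chow-father 4) to 0.42 in chow-father arrays. HFD-father 1 held the highest lymphocyte marker mean (0.91, 4 of 4 measured above their own mean) and the highest endothelial one (0.26, 6 of 6). Other arrays lay at the end of a list too. Chow-father 1 had the highest acinar mean (0.42). Chow-father 6 had the lowest endothelial (-0.19), stellate cell and fibroblast (-0.45) and macrophage (-0.35) means. Results without HFD-father 1 and chow-father 4 are given where that matters, a choice made after seeing the data. In bulk tissue, a change in the share of a cell type and a change of RNA per cell cannot be told apart.

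Of the regulators, Insig1, which retains the Scap and SREBP complex and is itself an SREBP target, had the lowest p of all members. Its values were 8.55, 8.83, 8.64, 8.92 and 8.86 in HFD-father arrays 1 to 5, against 8.77, 8.53, 8.51, 8.31, 8.66 and 8.39 in chow-father arrays 1 to 6. All HFD-father arrays lay above the chow-father mean, but 2 of them lay below chow-father 1, so the groups overlapped. The difference was 0.23 ± 0.09 (SE), a ratio of 1.17 with a 95% interval from 1.02 to 1.35, and did not pass (limma, adjusted p = 0.491). It was 0.20 in the earlier set and 0.34 in the later set. A second Insig1 probe gave only 0.04 ± 0.09 (adjusted p = 0.926), with means of 8.33 in HFD-father and 8.30 in chow-father arrays. With both probes averaged the Insig1 difference was 0.13, so the probes of this gene disagree on the size of the difference.

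Insig2, the other retention protein, averaged 8.14 ± 0.10 (SD, n = 5) in HFD-father arrays and 8.05 ± 0.10 (SD, n = 6) in chow-father arrays, a difference of 0.10 ± 0.06 (SE) that did not pass (adjusted p = 0.678). With chow-father 1 left out it was 0.06. Srebf2 had 8.84, 8.93, 8.98, 8.99 and 8.94 in HFD-father arrays, against 8.90, 8.88, 9.03, 8.82, 9.00 and 8.82 in chow-father arrays. HFD-father values lay entirely inside the chow-father range. The Srebf2 difference was 0.03, with a 95% interval from -0.09 to 0.15. Scap, the escort and sterol sensor, differed by 0.00 (interval -0.10 to 0.11), with a sign that depended on the processing.

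**Figure D1:**
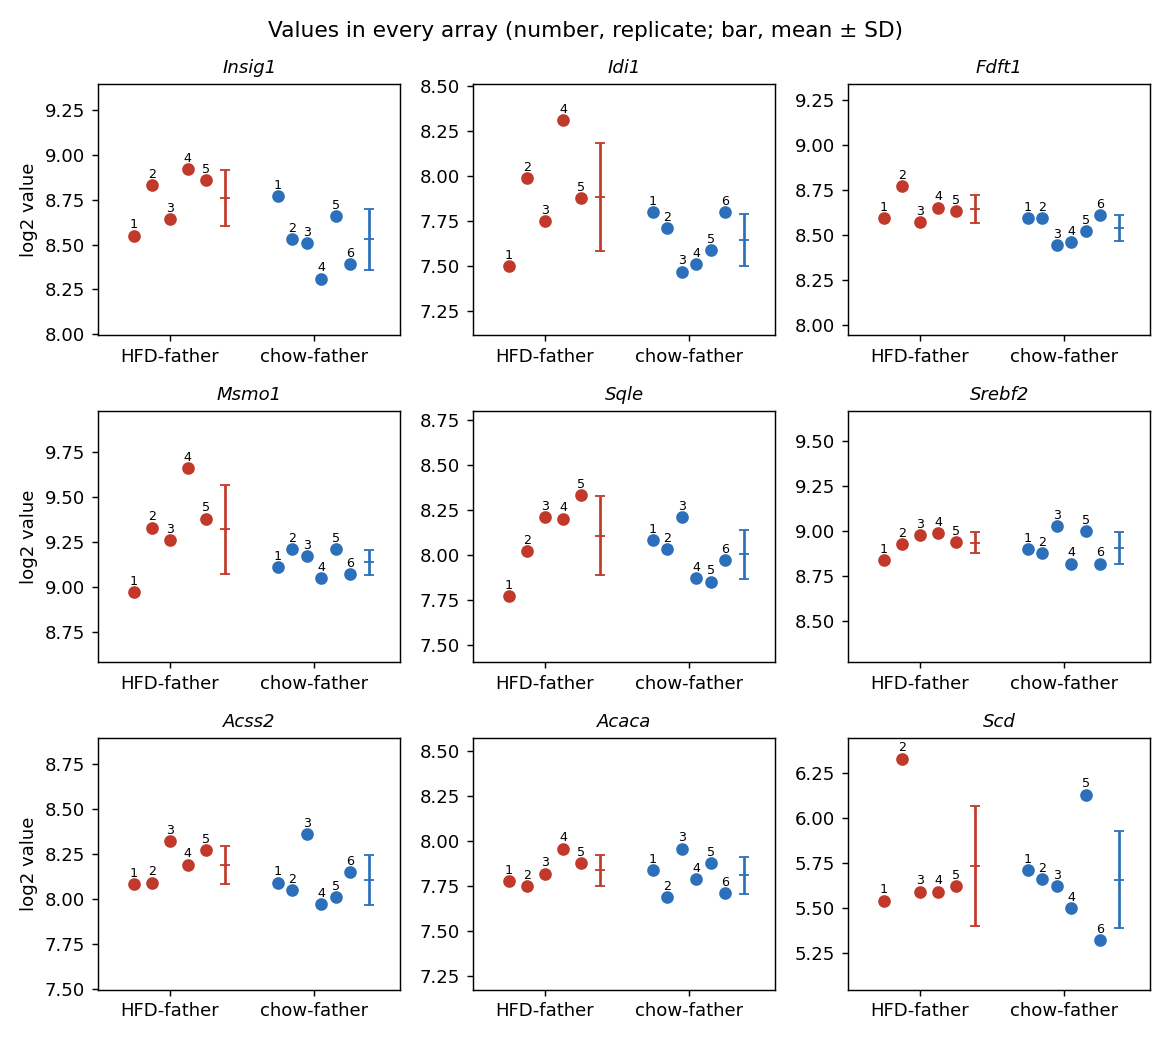
Log2 values (vertical axis) of 9 genes in every array, HFD-father arrays (red, n = 5) left of chow-father arrays (blue, n = 6), with the replicate number above each point and the mean ± SD as a bar. All panels span the same number of log2 units. Idi1 and Msmo1 are highest in HFD-father 4 and, for Msmo1, lowest in HFD-father 1, and Scd is highest in HFD-father 2.

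The sterol arm had 14 of 15 measured genes with a higher mean in HFD-father arrays (93.3%), against 51.9% of all genes, and a median difference of 0.09, against 0.00 over all genes. No gene of the arm passed, and 0 of 15 had an unadjusted p under 0.05, while 4 lay under 0.1 (Fdft1, Idi1, Msmo1 and Nsdhl), against 6.14% of all genes that were higher at that level. Genes of like brightness were also more often higher than all genes together. Of the 6152 genes whose mean lay in the range of the sterol arm (6.64 to 9.24), 66.8% were higher, with a median of 0.03. The interquartile range of all values of an array averaged 3.07 ± 0.05 (SD, n = 5) in HFD-father arrays and 3.00 ± 0.04 (SD, n = 6) in chow-father arrays. The part of this in the sterol arm count was not tested. After quantile normalization 12 of 15 genes were higher with a median of 0.06, against 0.00 over all genes. The share among genes of like brightness was not computed after that normalization. Some marker lists of other cell types were mostly higher in HFD-father arrays too, with no marker past the threshold. Of the measured acinar markers 12 of 13 were higher (median 0.15), of the endothelial ones 6 of 6 (median 0.11) and of the lymphocyte ones 4 of 4 (median 0.20). The other marker lists had medians of 0.11 (adipocyte, 3 of 5 higher), 0.08 (ductal, 2 of 3), 0.04 (stellate cell and fibroblast, 5 of 7), 0.01 (macrophage, 3 of 6) and 0.00 (islet endocrine, 3 of 9). The acinar markers turned between the sets, with 13 of 13 higher (median 0.25) in the earlier set and 1 of 13 (median -0.07) in the later set. Chow-father 4, in the earlier set, was the lowest array for all 13. Endothelial markers had 6 of 6 higher in the earlier and 5 of 6 in the later set, and lymphocyte markers 4 of 4 and 3 of 4. With the acinar marker mean as a covariate 14 of 15 sterol arm genes were higher, with a median of 0.09. The part of acinar or other cell types in these differences was not tested.

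At the first steps, which lead to isopentenyl units, Idi1 had the largest difference. It encodes the isomerase that interconverts the isopentenyl building blocks, and had 7.50, 7.99, 7.75, 8.31 and 7.88 in HFD-father arrays, against 7.80, 7.71, 7.47, 7.51, 7.59 and 7.80 in chow-father arrays. HFD-father arrays 2, 4 and 5 exceeded every chow-father array, and HFD-father 1 was near the bottom. The difference was 0.24 ± 0.12 (SE), a ratio of 1.18 with a 95% interval from 0.98 to 1.41 (limma, adjusted p = 0.572), and 0.13 with HFD-father 4 left out. Acat2, the cytosolic thiolase that joins acetyl-CoA units, gave 0.09 ± 0.09 (adjusted p = 0.795). For Acat2 the difference was -0.04 in the earlier set and 0.45 in the later set, and it was 0.02 with HFD-father 5 left out and 0.15 with HFD-father 2 left out. Phosphomevalonate kinase (Pmvk) and mevalonate diphosphate decarboxylase (Mvd) lay near equality, at 0.01 (interval -0.16 to 0.17) and 0.00 (interval -0.11 to 0.11).

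At the steps through squalene to lanosterol, all 3 measured genes had small positive differences. Fdft1, squalene synthase, which commits the pathway to sterols, had 8.59, 8.77, 8.57, 8.65 and 8.63 in HFD-father arrays, against 8.59, 8.59, 8.44, 8.46, 8.52 and 8.61 in chow-father arrays. Every HFD-father array lay above the chow-father mean, and 3 of 5 exceeded all chow-father arrays. The difference was 0.11 ± 0.05 (SE), a ratio of 1.08 with an interval from 0.99 to 1.17 (limma, adjusted p = 0.572), and was 0.13 in the earlier set and 0.06 in the later set. Sqle, squalene epoxidase, had 7.77, 8.02, 8.21, 8.20 and 8.33 in HFD-father arrays, against 8.08, 8.03, 8.21, 7.87, 7.85 and 7.97 in chow-father arrays. HFD-father arrays held both the lowest and the highest Sqle value. The Sqle difference of 0.10 ± 0.10 (adjusted p = 0.77) was 0.00 in the earlier set and 0.42 in the later set, and was 0.19 with HFD-father 1 left out and 0.05 with HFD-father 5 left out. Lanosterol synthase (Lss) gave 0.07 ± 0.05 (adjusted p = 0.72), with 4 of 5 HFD-father arrays above all chow-father arrays, and was 0.04 with HFD-father 4 left out and 0.10 with HFD-father 1 left out.

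The steps from lanosterol to cholesterol gave 7 of 8 positive differences with a median of 0.10. Msmo1, the methylsterol monooxygenase that starts removal of methyl groups at carbon C4, had 8.97, 9.33, 9.26, 9.66 and 9.38 in HFD-father arrays, against 9.11, 9.21, 9.17, 9.05, 9.21 and 9.07 in chow-father arrays. HFD-father arrays 2 to 5 were all above the chow-father range and HFD-father 1 was below it. The difference was 0.18 ± 0.10 (SE), a ratio of 1.13 with an interval from 0.98 to 1.31 (limma, adjusted p = 0.582), and was 0.10 with HFD-father 4 left out. The other enzymes of this demethylation also had positive differences. Nsdhl, its dehydrogenase, averaged 7.65 ± 0.12 (SD, n = 5) in HFD-father and 7.52 ± 0.11 (SD, n = 6) in chow-father arrays, a difference of 0.13 ± 0.07 (adjusted p = 0.584). Hsd17b7, its ketoreductase, also differed by 0.13 (adjusted p = 0.692). Its difference was 0.04 in the earlier set and 0.40 in the later set, and it was 0.07 with chow-father 5 left out and 0.08 with HFD-father 5 left out.

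Among the remaining late enzymes, the sterol isomerase Ebp differed by 0.13 ± 0.08 (adjusted p = 0.649). Its difference was 0.03 in the earlier set and 0.46 in the later set, and 0.07 with HFD-father 5 left out. The sterol desaturase Sc5d gave 0.08 ± 0.06 (adjusted p = 0.728), and 0.12 with HFD-father 1 left out. Lanosterol demethylase (Cyp51) gave 0.05 (interval -0.14 to 0.24), and -0.03 with HFD-father 4 left out but 0.12 with HFD-father 1 left out. Dhcr7, the reductase of the last step, gave 0.02 (interval -0.18 to 0.21). Tm7sf2, a sterol reductase, was the exception in sign at -0.08 (interval -0.29 to 0.12), and was -0.01 with HFD-father 1 left out, -0.05 with chow-father 3 left out and -0.13 with HFD-father 3 left out. Stard4, which carries sterols between membranes, averaged 6.60 ± 0.10 (SD, n = 5) in HFD-father and 6.54 ± 0.06 (SD, n = 6) in chow-father arrays (difference 0.06, adjusted p = 0.764). With HFD-father 1 left out the Stard4 difference was 0.09, and 0.04 with HFD-father 2 or 4 left out.

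**Figure D2:**
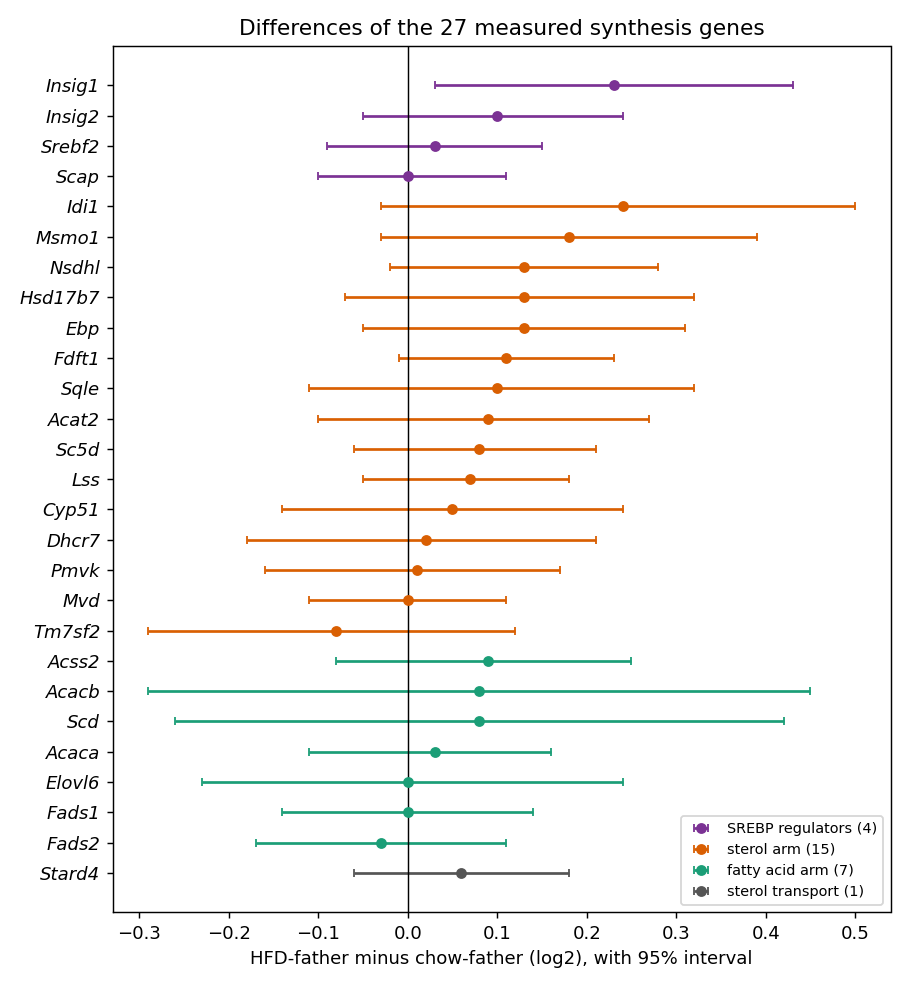
Difference of each measured gene, HFD-father minus chow-father (log2, horizontal axis), as a point with its 95% interval from limma, coloured by arm. Only the interval of Insig1 lies to the right of 0 without adjustment; the sterol arm runs from -0.08 (Tm7sf2) to 0.24 (Idi1) and the fatty acid arm from -0.03 (Fads2) to 0.09 (Acss2).

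The fatty acid arm had 5 of 7 measured genes with a higher mean in HFD-father arrays (71.4%) and a median of 0.03. That median was 0.00 after quantile normalization (4 of 7 higher), with the dim-probe filter (3 of 5 higher) and with the acinar covariate (3 of 7 higher). It was 0.06 in the earlier set alone, and 0.05 with median centring, which moved the median of all genes to 0.03. With single arrays left out it was -0.01 (chow-father 4), -0.02 (HFD-father 2), 0.01 (chow-father 2 or 6) and at most 0.05 (HFD-father 3). Of the 8143 genes in its range of means (5.69 to 9.17), 59.9% were higher, with a median of 0.02. No gene of the arm exceeded a difference of 0.1, against 7 of 15 in the sterol arm and 12.1% of all genes. Acss2, which makes acetyl-CoA from acetate, had 8.08, 8.09, 8.32, 8.19 and 8.27 in HFD-father arrays, against 8.09, 8.05, 8.36, 7.97, 8.01 and 8.15 in chow-father arrays. The highest Acss2 value was in chow-father 3, and 3 chow-father arrays lay below all HFD-father arrays. The difference was 0.09 ± 0.07 (SE, adjusted p = 0.751), and was 0.14 with chow-father 3 left out and 0.05 with HFD-father 3 left out.

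Acaca, the acetyl-CoA carboxylase that supplies malonyl-CoA for fatty acid synthesis, had 7.78, 7.75, 7.82, 7.96 and 7.88 in HFD-father arrays, against 7.84, 7.69, 7.96, 7.79, 7.88 and 7.71 in chow-father arrays. The Acaca groups covered nearly the same range, with a difference of 0.03 (interval -0.11 to 0.16). Acacb, the carboxylase at mitochondria that bears on fatty acid oxidation, gave 0.08 with a wide interval from -0.29 to 0.45, and its sign turned with HFD-father 1 left out (-0.03) or chow-father 4 left out (-0.02). Leaving out other single arrays gave Acacb differences from 0.03 (chow-father 3) to 0.17 (chow-father 1). Its values ran from 5.61 to 6.33 (median 5.85) in HFD-father arrays and from 5.27 to 6.26 (median 5.82) in chow-father arrays, lowest in chow-father 4 and highest in HFD-father 1. Those arrays also held the lowest acinar marker mean (-0.91) and the second highest (0.40), and with that mean as a covariate the Acacb difference was -0.02.

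Scd, the desaturase that makes monounsaturated fatty acids, had 5.54, 6.33, 5.59, 5.59 and 5.62 in HFD-father arrays, against 5.71, 5.66, 5.62, 5.50, 6.13 and 5.32 in chow-father arrays. HFD-father 2 and chow-father 5 were high, and the other arrays of both groups overlapped. The Scd difference of 0.08 (interval -0.26 to 0.42) was -0.07 with HFD-father 2 left out, 0.17 with chow-father 5 left out and 0.01 with chow-father 6 left out. HFD-father 2 also had the highest mean of the 5 adipocyte markers (0.37, all 5 above their own mean, against -0.18 to 0.16 in the other HFD-father arrays and -0.09 to 0.04 in chow-father arrays), whereas chow-father 5 was at 0.01. The part of adipocytes in the Scd values was not tested. Scd and Acacb were also the only members under the limit for dim probes (above 6.17 in at least 5 arrays), which 25 of 27 passed.

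The elongase gene Elovl6 differed by 0.00 (interval -0.23 to 0.24). Of the desaturases of polyunsaturated fatty acids, Fads1 differed by 0.00 (interval -0.14 to 0.14). Fads2 had 8.97, 9.13, 9.22, 9.18 and 9.27 in HFD-father arrays, against 9.23, 9.16, 9.28, 9.19, 9.20 and 9.04 in chow-father arrays, a difference of -0.03 (interval -0.17 to 0.11). HFD-father 1 was the lowest of all arrays for both desaturases.

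Set side by side, the median of the sterol arm exceeded that of the fatty acid arm by 0.06. For each array, the median deviation of the fatty acid arm was also taken from that of the sterol arm. This value had a pooled SD of 0.06 within groups, which is a spread of single arrays and not an error of the gap between the arm medians. Single arrays moved this gap. It was 0.02 with HFD-father 3 left out, 0.03 with HFD-father 4, HFD-father 5 or chow-father 5 left out, 0.09 with chow-father 4 left out and 0.10 with HFD-father 2 left out. The gap was not the same in the 2 array sets. In the earlier set the medians were 0.04 for the sterol arm and 0.06 for the fatty acid arm, with 11 of 15 and 5 of 7 genes higher, against 47.6% of all genes, so the order of the arms was the opposite. In the later set both medians were 0.07, with 14 of 15 and 5 of 7 genes higher, against 56.1% of all genes, but that set has a single HFD-father array. The difference was positive within both sets in 10 of 15 sterol arm genes and 3 of 7 fatty acid arm genes, against 29.7% of all genes.

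Single arrays ranked in another order in each arm. The mean deviation of the sterol arm genes from their own means was -0.14, 0.07, 0.03, 0.15 and 0.11 in HFD-father arrays 1 to 5, against 0.00, -0.04, 0.02, -0.09, -0.04 and -0.07 in chow-father arrays 1 to 6. HFD-father 1 was the lowest of all 11 arrays and HFD-father 4 the highest. HFD-father 4 held the highest value of 6 of 15 sterol arm genes, and of 9.59% of all genes, and HFD-father 1 the lowest of 5 of 15, and of 14.4% of all genes. In the fatty acid arm the mean deviation was 0.00, 0.16, -0.06, -0.03 and 0.02 in HFD-father arrays, against 0.07, -0.04, 0.06, -0.16, 0.08 and -0.10 in chow-father arrays. There HFD-father 2 was the highest and chow-father 4 the lowest. Without Scd, the mean of the other 6 genes was 0.08 in HFD-father 2, as in chow-father arrays 1 and 3, and -0.15 in chow-father 4. The regulators gave -0.07, 0.08, 0.04, 0.10 and 0.10 in HFD-father arrays, against -0.02, 0.00, 0.01, -0.14, 0.03 and -0.12 in chow-father arrays.

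**Figure D3:**
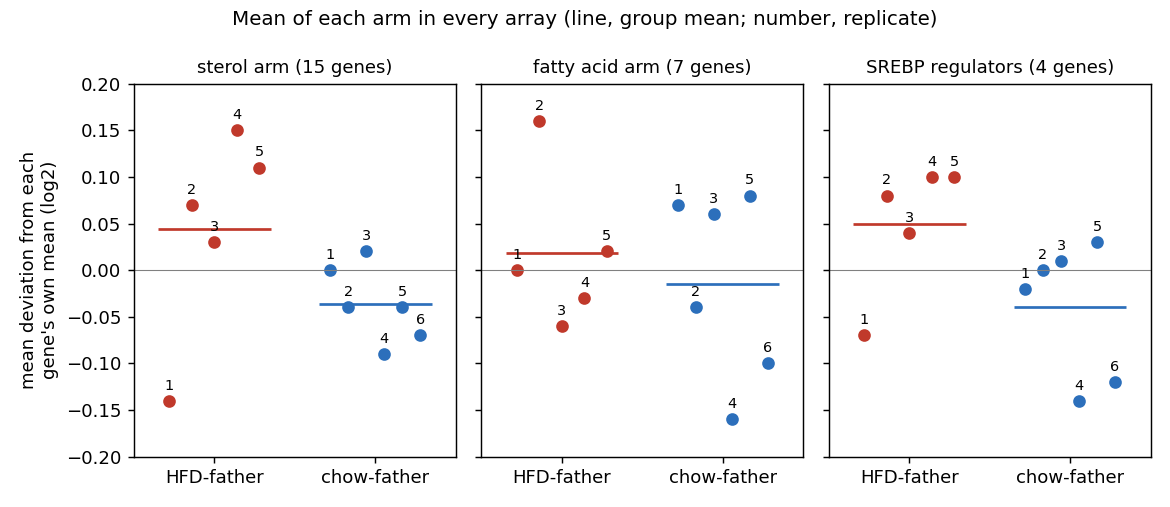
Mean deviation of the genes of each arm from their own mean over all arrays (log2, vertical axis), 1 point per array with its replicate number, HFD-father arrays (red) left of chow-father arrays (blue), lines at the group means. In the sterol arm HFD-father arrays span -0.14 to 0.15 and chow-father arrays -0.09 to 0.02, while in the fatty acid arm they span -0.06 to 0.16 and -0.16 to 0.08.

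The spread among arrays of a group was set side by side as well. The SD was larger in HFD-father arrays for 13 of 15 sterol arm genes, against 52.8% of all genes, for 4 of 7 fatty acid arm genes and for 0 of 4 regulators. The median SD of the sterol arm was 0.18 in HFD-father and 0.11 in chow-father arrays, and that of the fatty acid arm 0.13 and 0.14. Msmo1 had SDs of 0.25 in HFD-father and 0.07 in chow-father arrays, Idi1 0.30 and 0.14, Cyp51 0.21 and 0.08, and Dhcr7 0.21 and 0.10. With HFD-father 1 left out the count was 10 of 15 (43.2% of all genes), and with HFD-father 4 left out it was 14 of 15 (51.4% of all genes). The fatty acid arm count was 2 of 7 with HFD-father 2 left out and up to 5 of 7 with chow-father 3 or 4 left out. The regulator count was 2 of 4 with chow-father 1 left out, and 0 or 1 of 4 with any other array left out. No test was run on these counts. HFD-father 1, the lowest array of the sterol arm, also had the lowest mean of 9 islet endocrine markers (-0.17, 0 of 9 above their own mean) and high marker means of acinar (0.40), ductal (0.82, 3 of 3 measured) and lymphocyte cells (0.91). Chow-father 1 had marker means of -0.11 (islet endocrine), 0.42 (acinar), 0.62 (ductal) and -0.15 (lymphocyte), with a sterol arm mean of 0.00. Chow-father 4 had the highest islet endocrine mean (0.19) and the lowest acinar mean (-0.91), with a sterol arm mean of -0.09. The part of cell composition in the sterol arm values of these arrays was not tested. Without HFD-father 1 and chow-father 4 the sterol arm median was 0.10 with 14 of 15 genes higher, and the fatty acid arm median 0.02 with 5 of 7 higher.

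**Figure D4:**
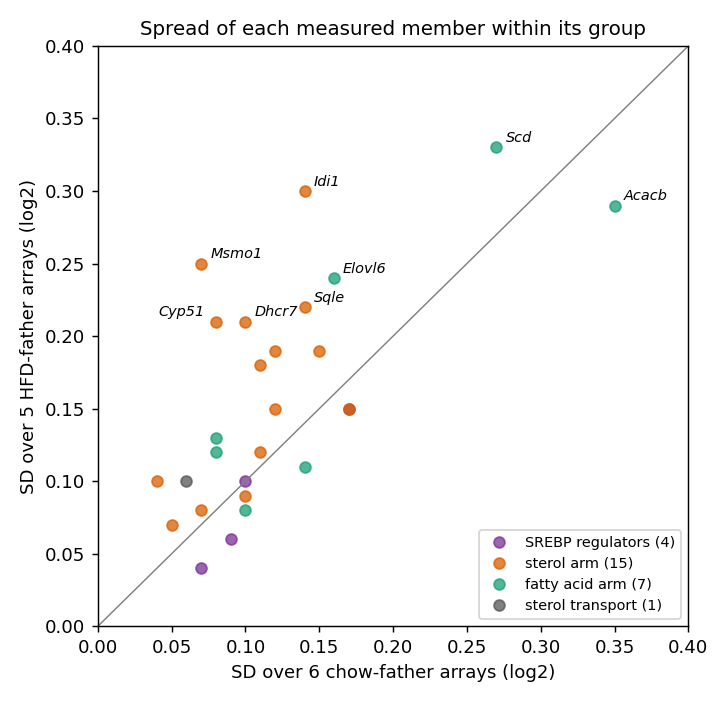
SD of each measured gene over 5 HFD-father arrays (vertical axis, log2) against its SD over 6 chow-father arrays (horizontal axis, log2), coloured by arm, with the line of equal SD. Of the 15 sterol arm genes 13 lie above the line, Idi1 and Msmo1 farthest, and none of the 4 regulators does.

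Other genes around the pathway were described by lists of genes outside the 32. Of 20 genes for SREBP processing and further SREBP targets, 16 were measured, 11 had a higher and 5 a lower mean in HFD-father arrays, with a median of 0.01, and 0 passed. In the earlier set 11 of 16 were higher (median 0.04) and in the later set 6 of 16 (median -0.04). The lowest p-values belonged to Ggps1, which makes the geranylgeranyl diphosphate used for protein prenylation (0.12 ± 0.07, adjusted p = 0.612), and Lbr, a nuclear envelope protein with sterol reductase activity (0.16 ± 0.10, adjusted p = 0.655). Lbr was highest in HFD-father 1 (8.14, against 7.52 to 7.67 in the other HFD-father arrays and 7.35 to 7.62 in chow-father arrays), and with that array left out its difference was 0.05. The protease genes Mbtps1 and Mbtps2, which cut SREBPs in the Golgi apparatus, gave 0.00 and -0.03, and Acly, which makes cytosolic acetyl-CoA from citrate, gave -0.01. The sign of Mbtps2 turned with HFD-father 1 left out (0.01), and that of Acly with HFD-father 1 (0.03), HFD-father 2 (0.02) or chow-father 3 (0.02) left out, and it was 0.00 with chow-father 4 or 5 left out. Acly also differed in sign between the sets (-0.08 in the earlier and 0.19 in the later). All 12 genes of sterol sensing by LXR receptors, efflux and storage were measured, 8 higher and 4 lower, with a median of 0.03 and 0 past the threshold. The sets differed here, with 4 of 12 higher (median -0.01) in the earlier set and 10 of 12 (median 0.15) in the later set. There Scarb1, a lipoprotein receptor, had 0.09 ± 0.11 (adjusted p = 0.818), but -0.02 with HFD-father 4 left out and 0.14 with HFD-father 1 left out. Nr1h3, the LXR alpha gene, had -0.07 ± 0.08 (adjusted p = 0.818), from -0.14 with HFD-father 1 left out to -0.03 with HFD-father 3 left out. The cholesterol exporters Abca1 and Abcg1, targets of LXR, both gave -0.04. Their signs were opposite in the sets, with Abca1 at -0.12 in the earlier and 0.17 in the later, and Abcg1 at -0.14 in the earlier and 0.26 in the later. With single arrays left out Abca1 ran from -0.09 (chow-father 6) to 0.00 (HFD-father 1) and Abcg1 from -0.09 (HFD-father 5) to 0.01 (chow-father 3).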

How the data were processed

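Islet RNA was hybridised to 11 one-colour Affymetrix arrays with biotin-labelled cRNA, per the labels. The deposited gene-level table holds log2 values of 27342 probes that the authors normalized between arrays. The log2 scale was read from the values. Per the submitters' processing notes RMA and MAS5 were involved, at steps not given there, and background correction is not given in the sources used here. Array medians ran from 6.14 to 6.20, and precision is limited by how many arrays there are. The platform table gives 1 symbol for 15097 probes, several for 323 and none for 11922. Symbols were updated through gene numbers to RefSeq (GRCr8) for 15067 probes. Exon-level values were not used here.

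HFD-father and chow-father arrays were compared by limma 3.58.1 under R 4.3.3 (two-sided, moderated with eBayes) on all arrays and probes with no covariate. All adjusted p-values are from limma. The script was tested on simulated data with independent noise and shifts larger than any member difference here. That run cannot show how well differences as small as these are found. The members and lists were chosen with earlier results of these data known. All members are named whatever their values, and values in every array are given for Srebf2, Insig1, Sqle, Scd, Acaca and the 3 genes of lowest p in each arm. Of the other pathway lists, the 2 genes of lowest p are named; Mbtps1, Mbtps2, Acly, Abca1 and Abcg1 were added after their values were seen. Alternatives were blocks for the array set or the replicate number, the earlier set alone, quantile normalization, median centring, a dim-probe filter, the acinar marker mean as covariate, averaged probes and each replicate left out. Leaving out HFD-father 1 with chow-father 4, the counts of SDs, the fatty acid arm without Scd and single arrays left out for genes outside the 32 were chosen after seeing the data. Python 3.11.15 with matplotlib 3.10.9 made the figures.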

Additional observations from a re-analysis of the deposited data

Results flagged for a closer look

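Within the groups, 60 sets of values (27 genes and 3 arm means in each group) were checked for an array far from the others of its group. Such an array was found in 2 of the 60, which is no excess, as chance gives about 1 in 20. Scd in HFD-father replicate 2 was 6.33, with the next highest HFD-father array at 5.62, a gap of 0.90 of the whole range of the group. Pmvk in HFD-father replicate 2 was 7.48, with the next highest at 7.21, a gap of 0.75 of the range. Both values come from the array that also had the highest adipocyte marker mean, and the part of adipocytes in them was not tested.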

How the results depend on the processing

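No member passed limma's adjusted threshold under any of 20 alternatives (lowest adjusted p = 0.251), and 1 of 27 had an unadjusted p under 0.05. Of 538 member values under these alternatives, 485 kept the sign of the reported value, and 13 of 27 genes kept it throughout, 9 of them in the sterol arm and 1 in the fatty acid arm. The gap between the arm medians was -0.01 in the earlier set alone. The number of fatty acid arm genes with a higher mean was 3 of 7 with the acinar marker mean as covariate, 3 of the 5 left by the dim-probe filter, and 3 to 6 with each replicate left out. The sterol arm median stayed between 0.04 (earlier set) and 0.11 (median centring) under the alternatives other than leaving out 1 replicate, and between 0.07 and 0.12 with each replicate left out. The gap ran from 0.02 to 0.10 with each replicate left out. The fatty acid arm median ran from -0.02 to 0.05 with each replicate left out.

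Signs turned mostly for genes near 0. In the earlier set alone the differences were -0.04 for Acat2, -0.02 for Mvd, -0.02 for Dhcr7 and -0.03 for Scap. After quantile normalization they were -0.01 for Pmvk, 0.00 for Mvd, -0.03 for Elovl6, 0.00 for Srebf2 and -0.03 for Scap. With the acinar covariate they were -0.02 for Acacb, 0.00 for Elovl6 and 0.00 for Scap. Median centring moved the median of all genes to 0.03; Fads1 was 0.02 there, -0.01 relative to that median, and the sterol arm median of 0.11 was 0.08 relative to it. Leaving out HFD-father 1 and chow-father 4 together gave -0.01 for Mvd, 0.01 for Tm7sf2, -0.14 for Acacb, -0.04 for Elovl6, 0.02 for Fads1, 0.02 for Fads2 and 0.00 for Scap. With each replicate left out, values ran from -0.06 to 0.03 for Pmvk, -0.02 to 0.02 for Mvd, -0.03 to 0.12 for Cyp51, -0.05 to 0.10 for Dhcr7, 0.00 to 0.06 for Acaca, -0.03 to 0.17 for Acacb, -0.09 to 0.06 for Elovl6, -0.07 to 0.17 for Scd, -0.04 to 0.04 for Fads1, -0.06 to 0.02 for Fads2 and -0.02 to 0.02 for Scap. A value of 0.00 here has the other sign before rounding. The cause of these turns, that common shift apart, was not tested.

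The labels do not say whether samples of the same replicate number were paired, and the check given next cannot exclude it. Over 5 numbers the correlation of same-numbered deviations ran from -0.48 to 0.35, and 1 of 5 HFD-father arrays correlated best with its own number. With the replicate number as a block, which leaves out chow-father 6, the sterol arm median was 0.08, the fatty acid arm median 0.01, and Dhcr7 and Scap were -0.02 each; no call changed.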

Other observations

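Tmem97, a sterol-regulated membrane protein gene among the further SREBP targets, was singled out after its values were seen because it spread more widely than any member. It had 9.71, 8.45, 7.78, 9.05 and 8.27 in HFD-father arrays, against 9.54, 9.38, 7.77, 7.01, 8.53 and 8.96 in chow-father arrays. The difference was 0.12 with a 95% interval from -0.85 to 1.09 (limma, adjusted p = 0.956). It was 0.32 in the earlier set and -0.47 in the later set, and ran from -0.19 with chow-father 4 left out to 0.34 with HFD-father 3 left out. It was highest in HFD-father 1 and lowest in chow-father 4. The mean deviation of the acinar markers in those arrays was 0.40 and -0.91. The part of acinar cells in the Tmem97 values was not tested.

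Scd2, another stearoyl-CoA desaturase gene, differed by 0.11 (interval -0.06 to 0.28), also chosen after its values were seen. It was 0.01 in the earlier set and 0.43 in the later set, and 0.06 with HFD-father 5 left out, the array of its highest value (10.49).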
